A study of Mus musculus with 6 samples.

Results

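The desmosome genes described here are the 10 genes Dsg2, Dsg3, Dsc2, Dsc3, Dsp, Jup, Pkp1, Pkp2, Pkp3 and Perp, found by their symbols among the 21959 genes of the count table. All 10 were found, and 8 of them had enough reads to be tested. Their RNA was compared between MPC, a mouse gastric adenocarcinoma line, and MPC-PTX, the line raised from it under paclitaxel (PTX), with 3 libraries per line. They were taken to be the lines that the study's text calls MTC and MTC-R, and the origin given next rests on that. Both carry the genotype labelled CDH1-/-;Trp53-/-, and MPC-PTX had in addition received more than 30 cycles of PTX, while MPC served as the untreated control. The 2 deletions were induced by Mist1-CreER in gastric organoids of Trp53 flox/flox;Cdh1 flox/flox C57BL/6J mice, and the organoids then grew as a subcutaneous tumour in a BALB/c nude mouse before culture. Each line passed through a monoclonal selection, so each is 1 clone, and differences between clones and effects of PTX cannot be told apart. The labels do not say whether the 3 replicates of a line were separate cultures, so the p-values measure only the spread between these libraries, which may be technical.

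Desmosomes are the spot-like junctions that couple the keratin filaments of neighbouring epithelial cells. Desmogleins (Dsg) and desmocollins (Dsc) are cadherins that span the membrane and bind those of the next cell. Inside the cell, plakoglobin (Jup) and the plakophilins (Pkp) bind the cadherin tails, and desmoplakin (Dsp) ties this plaque to keratin filaments. Dsg2 and Dsc2 are the cadherins of simple epithelia such as the glandular stomach, while Dsg3 and Dsc3 are known from the lower layers of stratified epithelia. Perp is a membrane protein of desmosomes whose gene is a known target of p53 and p63.

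Most of the tested desmosome genes differed little in RNA level between the lines, and one cadherin was much lower in MPC-PTX. Dsc2 was 5.36-fold lower in MPC-PTX, Pkp2 was 1.54-fold lower and Jup was 1.29-fold lower, and these 3 had an adjusted p below 0.05 (edgeR's quasi-likelihood test, adjusted by Benjamini-Hochberg over all tested genes). The remaining 5 tested genes, Dsg2, Dsp, Pkp1, Pkp3 and Perp, did not pass. No member was called higher, and none was higher at an unadjusted p under 0.05 either, by edgeR or by DESeq2 (0 genes each). Over all 11795 genes tested, 15.6% were called lower, 14.1% higher and 29.7% in either direction, against 3, 0 and 3 of the 8 desmosome genes. Of the 3, Dsc2 alone had changed by more than 1 on the log2 scale, as had 4.2% of all tested genes in the lower direction, 3.54% in the higher direction and 7.73% in either. The median log2 fold change was -0.24 over the 8 genes and 0.04 over all genes tested, and 7 of the 8 were below 0. In 6 of the 8 the libraries of the 2 lines did not overlap in CPM (counts relative to the library total, scaled by TMM), which held for 46.9% of all genes tested. In bulk RNA such as this, fewer cells that express a gene and less RNA per cell cannot be told apart.

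**Figure D1:**
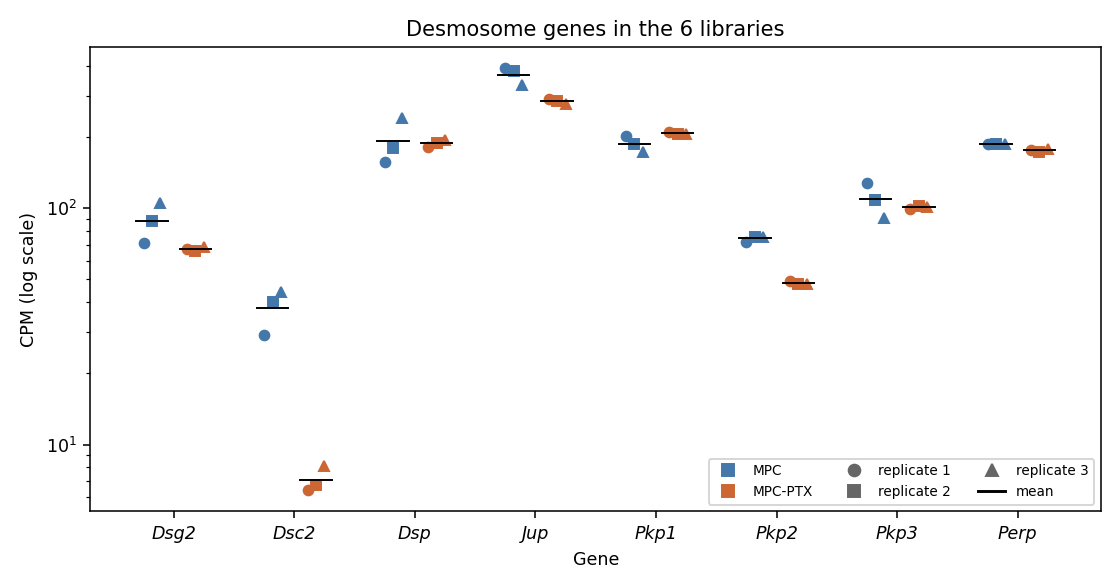
CPM on a log axis (y) of the 8 tested desmosome genes (x) in each library, with MPC in blue, MPC-PTX in orange, a marker shape per replicate and a bar at each mean. Dsc2 lies between 29.0 and 44.4 CPM in MPC and between 6.41 and 8.14 in MPC-PTX, while the ranges of Dsp and of Pkp3 overlap between the lines.

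Total counts were 19349425 to 21047477 in the MPC libraries and 16574580 to 23148182 in the MPC-PTX libraries. The knocked-out genes still had reads: Trp53 had 98, 63 and 120 counts in MPC and 142, 130 and 111 in MPC-PTX, and Cdh1 had 2561, 2555 and 2812 against 3068, 3018 and 2217, and as gene totals carry no exon resolution, these counts do not check the labelled genotype. The biological coefficient of variation was 17.9% among MPC libraries and 3.01% among MPC-PTX libraries. MPC replicate 3 stood apart from replicates 1 and 2 along GC content and transcript length (Spearman's rho -0.584 and 0.472 across 11776 genes of one library, which are not independent replicates). Of 12 gastric epithelial markers (Krt8, Krt18 and Krt19 are also in the keratin list) 8 were tested and all 8 were called lower in MPC-PTX, against 15.6% of all genes tested. Their summed CPM, most of it from Krt8, Krt18, Krt19 and Epcam, was 8320 to 9520 in MPC and 4811 to 4906 in MPC-PTX. Ctse and Anxa10 changed far more than the sum, from means of 274.7 and 128.8 CPM to 1.5 and 0.321 (log2 fold changes -7.54 and -8.62). Tff1, Tff2 and Gkn2 had 0 counts in every library. Summed CPM of fibroblast markers were 9.83 to 10.9 and 8.63 to 9.92, of leukocyte markers 11.1 to 12.6 and 9.39 to 10.6, and of endothelial markers 2.63 to 3.08 and 2.21 to 2.79. Mesothelial markers summed to 460.3 to 516.9 and 296.2 to 314.9, nearly all of it Msln. Reads of Gm16090, Gm10129 and Gm36938, which overlap Dsg2, Dsp and Pkp1 in GENCODE M21, may be counted with theirs. Gm36938 lies on the same strand as Pkp1, and for the other pairs, on opposite strands, the use of strand in the counting is not given in the sources used here. The part of the lower epithelial markers in the results on desmosome genes was not tested.

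Of the cadherins, 2 were tested, and Dsc2 (ENSMUSG00000024331), a desmocollin, was the 1 called lower. Its CPM were 29.0, 40.2 and 44.4 in the MPC libraries and 6.41, 6.72 and 8.14 in the MPC-PTX libraries, from 545, 779 and 925 counts against 150, 149 and 137. The lowest MPC library lay above the highest MPC-PTX library by a wide margin. The mean was 37.9 ± 8.0 CPM in MPC and 7.09 ± 0.924 CPM in MPC-PTX (SD over 3 libraries), and the log2 fold change was -2.42 (SE 0.18, 95% interval -2.86 to -1.99, edgeR adjusted p = 0.000153). Under all 13 alternative settings that test against no change (glmTreat, which tests against a log2 fold change of 1, is apart from these) Dsc2 kept its direction and its call, with log2 fold changes of -2.59 to -2.35.

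Dsg2 (ENSMUSG00000044393), the desmoglein that pairs with Dsc2 in simple epithelia, had a smaller log2 fold change. In MPC it had 71.2, 88.5 and 105.4 CPM and in MPC-PTX 67.0, 66.1 and 68.9 CPM. The MPC libraries were all higher in CPM, but replicate 1 exceeded the highest MPC-PTX library by little, and the MPC libraries were spread widely (88.4 ± 17.1 against 67.3 ± 1.41, SD, n = 3). With counts divided by exon length and scaled to 1 fixed sum per library (TPM), the lines overlapped. Dsg2 then had 26.4 to 42.5 in MPC and 27.2 to 28.5 in MPC-PTX. The log2 fold change was -0.39 (SE 0.13, 95% interval -0.71 to -0.08) with an edgeR adjusted p of 0.0654, so the difference did not pass the test. It was below 0 in all 13 alternatives and passed in 8 of them, DESeq2 among these (adjusted p = 0.0197, range 0.00128 to 0.184 over the 13). Leaving out MPC replicate 1 gave -0.53 and leaving out MPC replicate 3 gave -0.30, both with an adjusted p under 0.05.

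Dsg3 and Dsc3, the cadherins of stratified epithelia, had at most 10 counts in any library and were not tested. Dsg3 (ENSMUSG00000056632) had 6, 10 and 5 counts in MPC and 1, 0 and 0 in MPC-PTX. That is 21 counts against 1, a ratio of 21.6 per total count with an exact 95% counting interval of 3.48 to 894.4. Dsc3 (ENSMUSG00000059898) had 0 counts in all MPC libraries, which allows up to 0.0501 CPM at 3 counts over the line, and 1 count in MPC-PTX replicate 1. Such intervals cover counting error only.

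The mix of cadherins differed between the lines. With counts scaled to the union of each gene's exons, Dsg2 made up 60.9%, 58.2% and 60.1% of the cadherin signal in the MPC libraries and 86.8%, 86.3% and 84.4% in the MPC-PTX libraries. Dsc2 made up 38.8%, 41.4% and 39.7% in MPC and 13%, 13.7% and 15.6% in MPC-PTX. Neither share overlapped between the lines, and the mean share of Dsg2 was 26.1 percentage points higher in MPC-PTX (59.7 ± 1.38% against 85.8 ± 1.29%, SD, n = 3, exact two-sided permutation p = 0.1, the smallest that 3 against 3 libraries can give). The ratio of Dsg2 to Dsc2 was 1.57, 1.41 and 1.51 in MPC and 6.67, 6.28 and 5.40 in MPC-PTX. As Dsg3 and Dsc3 added little to the sum, the shares of Dsg2 and Dsc2 mirror each other. Both shares and the ratio follow from the lower Dsc2 and are no separate result. Dsg2 itself was not higher in MPC-PTX. Summed over the 4 cadherins, the level was 43.4, 59.1 and 70.7 TPM in MPC and 31.6, 31.5 and 33.8 TPM in MPC-PTX, so that the lines did not overlap. TPM here are the counts divided by exon length and scaled to 1 fixed sum per library.

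**Figure D2:**
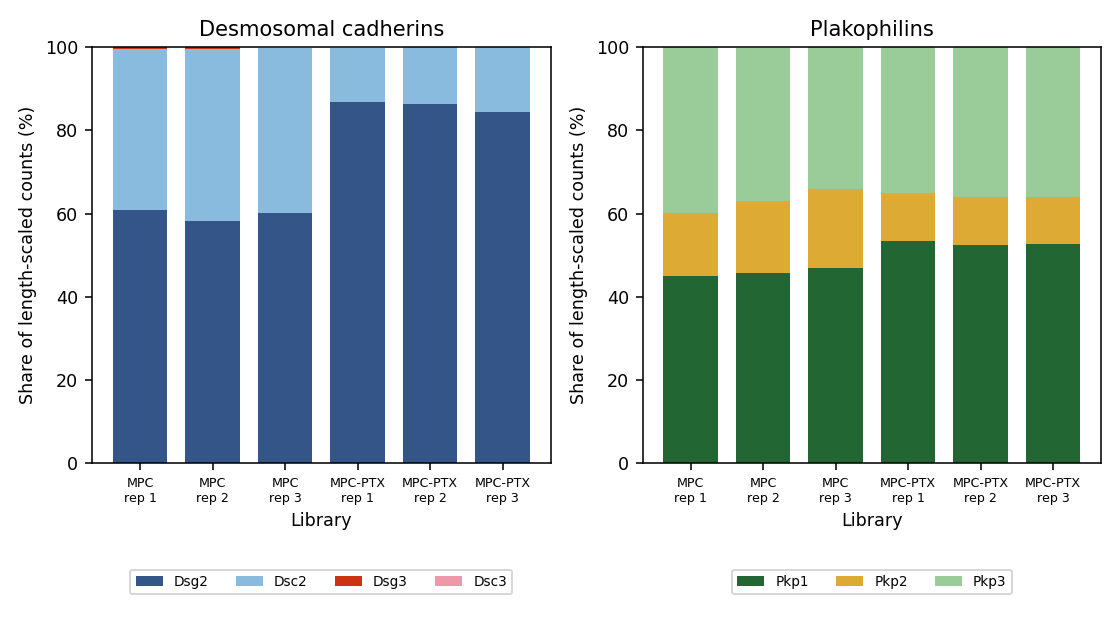
Stacked bars give the share (y, percent of length-scaled counts) that each desmosomal cadherin (left) and each plakophilin (right) held in each library (x). Dsc2 holds 38.8% to 41.4% of the cadherin signal in MPC and 13% to 15.6% in MPC-PTX, while Pkp1 holds 45.1% to 46.8% of the plakophilin signal in MPC and 52.5% to 53.3% in MPC-PTX.

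The 4 cadherin genes lie in one cluster on chromosome 18 of GRCm38, which spans 644 kb (19960930 to 20604521) and holds 9 desmosomal cadherin genes in the GENCODE M21 annotation. Dsc3 (19960930 to 20002351) and Dsc2 (20030633 to 20059554) lie on the minus strand at one end, and Dsg3 (20510274 to 20547459) and Dsg2 (20558074 to 20604521) on the plus strand at the other. Dsc2 and Dsg2 are 499 kb apart. The other 5 genes of the cluster, Dsc1, Dsg1a, Dsg1b, Dsg1c and Dsg4, had at most 3 counts in any library. Dsc2 and Dsg2 were thus the only cluster genes with enough reads to be tested. Of the 5 tested genes that are not cadherins within 1 Mb of the cluster, chosen after values of these data had been seen, only Rnf125 was called, and it was higher in MPC-PTX (log2 fold change 1.55, SE 0.25, edgeR adjusted p = 0.00365). The other 4, B4galt6, Trappc8, Rnf138 and Garem1, had log2 fold changes of -0.54, 0.43, 0.06 and 0.09. Over the 299 tested genes of chromosome 18 the median log2 fold change was 0.18.

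Jup (ENSMUSG00000001552, chromosome 11, 100368958 to 100397763), which encodes plakoglobin, the plaque protein shared by desmosomes and adherens junctions, was lower in MPC-PTX. Its CPM were 390.9, 380.9 and 331.3 in MPC and 291.3, 285.9 and 276.4 in MPC-PTX, with every MPC library above every MPC-PTX library. The mean was 367.7 ± 31.9 in MPC and 284.5 ± 7.56 in MPC-PTX (SD, n = 3), a log2 fold change of -0.37 (SE 0.08, 95% interval -0.55 to -0.19, edgeR adjusted p = 0.0103). The direction held in all 13 alternatives and the call in 10. Without MPC replicate 2 the adjusted p was 0.0501, without MPC-PTX replicate 2 it was 0.0528 and without MPC-PTX replicate 3 it was 0.0586, at log2 fold changes of -0.34, -0.37 and -0.35 (range of adjusted p over the 13, 1.53e-05 to 0.0586).

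Promoter sequence was at hand for 2 of the 10 members, Dsp and Jup, in the RefSeq table for GRCm38.p6. They are shown because those of the other members were not at hand. Whether the elements below bear on the RNA levels was not tested. Each stretch holds 250 bases before the RefSeq transcription start and 20 after it, 5′ to 3′ on the gene's strand, and capitals mark the matched motifs. The Dsp stretch lies on the plus strand at chr13:38151044-38151313 and the Jup stretch on the minus strand at chr11:100397771-100398040. GENCODE M21 starts Jup at 100397763, so the Jup stretch lies wholly upstream of that start, and the 2 annotations differ there.
Dsp: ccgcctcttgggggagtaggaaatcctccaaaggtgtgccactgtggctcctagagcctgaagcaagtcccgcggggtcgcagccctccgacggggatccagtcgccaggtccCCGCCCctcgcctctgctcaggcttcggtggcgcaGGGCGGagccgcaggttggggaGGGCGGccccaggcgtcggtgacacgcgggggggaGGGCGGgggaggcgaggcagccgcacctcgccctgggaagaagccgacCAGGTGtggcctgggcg
Jup: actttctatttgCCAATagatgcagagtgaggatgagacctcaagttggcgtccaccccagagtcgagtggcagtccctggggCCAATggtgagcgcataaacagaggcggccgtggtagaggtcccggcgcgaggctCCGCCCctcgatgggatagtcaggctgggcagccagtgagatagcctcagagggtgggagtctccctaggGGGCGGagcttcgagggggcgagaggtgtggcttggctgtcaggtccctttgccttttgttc
The motifs searched on both strands were the E-box CACCTG that ZEB and SNAI factors bind, the Grainyhead element AACCNGTT, the TATA box TATAAA, the CCAAT box CCAAT and the GC box GGGCGG. In the Dsp stretch, GGGCGG matched 4 times, at positions 114, 149, 171 and 206 from the 5′ end, and CACCTG once, at position 254. In the Jup stretch, CCAAT matched at positions 13 and 84 and GGGCGG at 139 and 209. No matches overlapped, and neither stretch held AACCNGTT or TATAAA. Of 32851 promoters cut to the same length, 34.1% held GGGCGG, 35.4% CCAAT, 18.4% CACCTG, 12.9% TATAAA and 1.92% AACCNGTT. A match is a description of letters and not of a bound site.

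Dsp (ENSMUSG00000054889, chromosome 13, 38151294 to 38198577), the plakin that reaches the keratin filaments, did not pass the test. It had 157.4, 179.7 and 241.1 CPM in MPC and 181.7, 188.9 and 195.1 CPM in MPC-PTX. The MPC-PTX libraries lay inside the range of the MPC libraries, whose replicate 3 was the highest of all 6. The log2 fold change was -0.03 (SE 0.15, 95% interval -0.39 to 0.32, edgeR adjusted p = 0.891), and its sign depended on the setting. It was 0.11 without MPC replicate 3 and 0.01 with library size alone in place of TMM. With a correction for GC content and transcript length it was -0.23 and passed in edgeR (adjusted p = 0.00675, range 0.00675 to 0.988 over the 13 alternatives). Set against the summed cadherins on the TPM scale, Dsp stood at 1.15, 1.01 and 1.18 in MPC and at 2.02, 2.11 and 2.05 in MPC-PTX (exact permutation p = 0.1). That ratio follows from the lower cadherin sum, as Dsp itself was not called.

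Of the 3 plakophilins, armadillo proteins that gather cadherins and desmoplakin in the plaque, 1 was called lower and 2 were not called. Pkp2 (ENSMUSG00000041957, chromosome 16, 16213318 to 16272712), known from simple epithelia and heart, had 72.3, 75.7 and 75.6 CPM in MPC and 49.3, 48.0 and 47.7 in MPC-PTX. Its replicates were tight in both lines and the lines stood well apart. The mean was 74.5 ± 1.98 CPM in MPC and 48.3 ± 0.875 CPM in MPC-PTX (SD, n = 3), a log2 fold change of -0.62 (SE 0.06, 95% interval -0.78 to -0.47, edgeR adjusted p = 0.000571), and it was called in all 13 alternatives at -0.67 to -0.59, but not by glmTreat.

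Pkp1 (ENSMUSG00000026413, chromosome 1, 135871395 to 135919207), best known from the upper layers of stratified epithelia, was the 1 member with a log2 fold change above 0. It had 201.9, 187.1 and 173.5 CPM in MPC and 211.1, 205.9 and 207.0 in MPC-PTX. All MPC-PTX libraries were higher than all MPC libraries, yet the gap to MPC replicate 1 was small. The log2 fold change was 0.15 (SE 0.07, 95% interval -0.01 to 0.31, edgeR adjusted p = 0.149). It passed in 1 of the 13 alternatives, without MPC replicate 1 (0.21, adjusted p = 0.0294, range 0.0294 to 0.44), and was 0.05 without MPC replicate 3.

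Pkp3 (ENSMUSG00000054065, chromosome 7, 141078218 to 141090510), which binds most of the desmosomal cadherins, had 128.5, 108.7 and 91.1 CPM in MPC and 99.7, 101.9 and 101.4 CPM in MPC-PTX. Here the MPC libraries spread to both sides of the MPC-PTX libraries. The log2 fold change was -0.12 (SE 0.12, 95% interval -0.40 to 0.16, edgeR adjusted p = 0.502). It was 0.01 without MPC replicate 1, and -0.28 without MPC replicate 3, the 1 alternative in which it passed (adjusted p = 0.0049, range 0.0049 to 0.909).

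Within the plakophilin family the share of Pkp2 was lower in MPC-PTX and that of Pkp1 higher. Pkp1 held 45.1%, 45.7% and 46.8% of the length-scaled plakophilin signal in MPC and 53.3%, 52.5% and 52.7% in MPC-PTX. Pkp2 held 15.1%, 17.3% and 19.1% against 11.7%, 11.5% and 11.4%. Neither share overlapped between the lines (exact permutation p = 0.1 each, the smallest possible), whereas the share of Pkp3 did (37.0 ± 2.85% and 35.6 ± 0.566%, SD, n = 3, exact permutation p = 0.6). The ratio of Pkp1 to Pkp2 was 2.98, 2.64 and 2.45 in MPC and 4.56, 4.58 and 4.63 in MPC-PTX. Their summed level was 273.5, 261.7 and 246.3 TPM in MPC and 267.0, 265.8 and 267.6 TPM in MPC-PTX, so the sum overlapped between the lines. Relative to the summed cadherins, the plakophilins stood at 6.30, 4.43 and 3.48 in MPC and at 8.45, 8.43 and 7.92 in MPC-PTX. This ratio follows from the lower cadherin sum, as the plakophilin sum overlapped between the lines.

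Perp (ENSMUSG00000019851, chromosome 10, 18845020 to 18857073), the tetraspan protein of the desmosome, was nearly level between the lines. It had 186.5, 187.4 and 187.1 CPM in MPC and 176.0, 173.7 and 178.2 CPM in MPC-PTX. The groups did not overlap in CPM, but they did on the TPM scale, at 293.1 to 319.6 in MPC and 302.8 to 312.7 in MPC-PTX. The log2 fold change was only -0.09 (SE 0.05, 95% interval -0.21 to 0.03, edgeR adjusted p = 0.247). It passed in 1 of the 13 alternatives, without MPC replicate 3 (-0.14, adjusted p = 0.0272, range 0.0272 to 0.52).

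**Figure D3:**
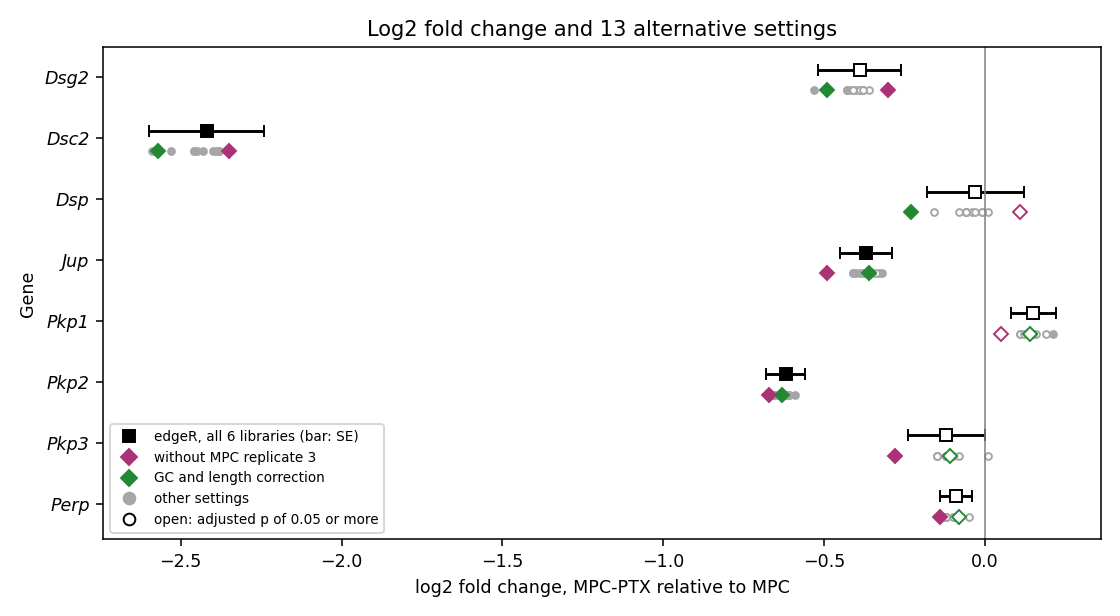
Log2 fold change of MPC-PTX relative to MPC (x) for each tested desmosome gene (y), with the fit on all 6 libraries as squares with SE bars and 13 alternative settings below each, open where the adjusted p is 0.05 or more. Dsc2 (-2.59 to -2.35) and Pkp2 (-0.67 to -0.59) stay filled throughout, while Dsp and Pkp3 fall on both sides of 0.

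MPC replicate 3 differed from the other MPC libraries in both directions among the members. Its log2 CPM minus the mean of MPC replicates 1 and 2 was 0.52 for Dsp, 0.41 for Dsg2 and 0.38 for Dsc2. For Pkp3, Jup and Pkp1, whose longest transcripts hold 53.8% to 60.3% GC, it was -0.37, -0.22 and -0.16. Pkp2 and Perp were level at 0.03 and 0.0. Without this library 6 of the 8 genes were called lower in place of 3, the added ones being Dsg2, Pkp3 and Perp. Lower calls over all genes tested also rose, from 1841 of 11795 to 3227 of 11896. Dsc2, with the lowest GC content of the 8 (42.5%), was at -2.35 without it.

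**Figure D4:**
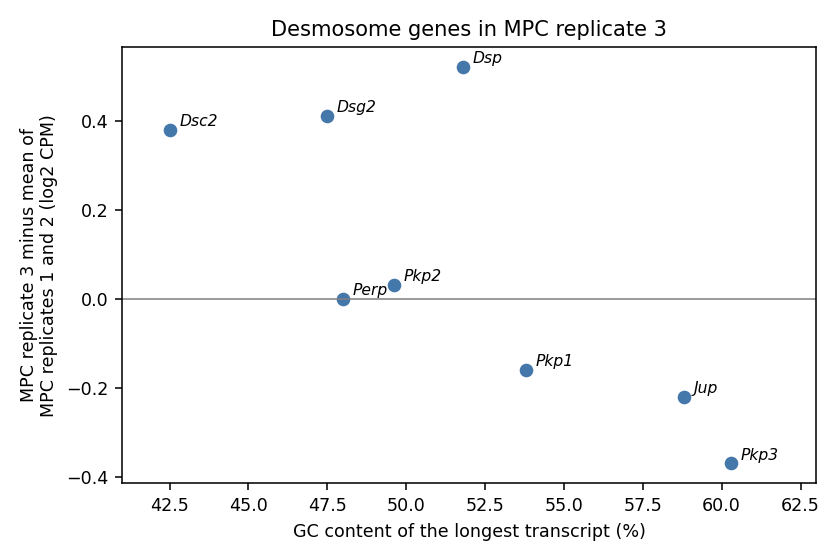
Difference of MPC replicate 3 from the mean of MPC replicates 1 and 2 in log2 CPM (y) against the GC content of the longest transcript in percent (x), 1 point per tested desmosome gene. Dsp, Dsg2 and Dsc2 lie between 0.38 and 0.52, and Pkp1, Jup and Pkp3 between -0.16 and -0.37.

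Compared per length of the union of exons, the 8 tested members stood in the same order of mean level in both lines. On the TPM scale the mean levels in MPC were 307.1 for Perp, 182.7 for Jup, 119.4 for Pkp1, 96.5 for Pkp3, 64.3 for Dsp, 44.6 for Pkp2, 34.4 for Dsg2 and 23.1 for Dsc2. The library ranges of neighbours in this order overlapped for Pkp2 with Dsg2 and for Dsg2 with Dsc2. In MPC-PTX the means were 307.0, 150.5, 141.0, 95.1, 66.5, 30.7, 27.7 and 4.58 in the same order of genes, and no neighbouring ranges among these 8 overlapped. Dsg3 and Dsc3 came last in both lines. With the longest transcript in place of the union of exons, a choice added after the data were seen, the order differed between the lines. In MPC, Jup (273.1) then stood above Perp (228.6) and Pkp2 (60.7) above Dsp (48.3), while in MPC-PTX Perp (228.7) stood above Jup (225.2) and Dsp (49.9) above Pkp2 (41.8). Summed over all 10 members the level was 846.2, 879.3 and 891.5 TPM in MPC and 821.2, 817.8 and 830.5 TPM in MPC-PTX, without overlap.

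Other genes of the junction and its surroundings were read from 9 lists of 104 gene names, of which 83 were tested. Of these, 32 (38.6%) were called lower and 13 (15.7%) higher, against 15.6% and 14.1% of all genes tested, and their median log2 fold change was -0.17. Without MPC replicate 3 the number called higher was 22 of 83, against 3020 of 11896 over all genes in that setting. Without MPC-PTX replicate 2 the number called lower was 21 of 83, against 1077 of 11908. Genes named from these lists beyond those that the naming rule selects were chosen after their values were seen.

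Keratins, the filaments that desmosomes anchor, changed in both directions. Of 13 tested, 8 were called lower and 3 higher, against 15.6% and 14.1% of all genes tested, with a median log2 fold change of -0.67. Krt8 and Krt18, the keratin pair of simple epithelia, were abundant and lower: Krt8 had 1965, 2095 and 1745 CPM in MPC and 953.0, 971.3 and 933.6 in MPC-PTX. The log2 fold change was -1.02 (SE 0.08, edgeR adjusted p = 0.000179) for Krt8 and -0.82 (SE 0.09, adjusted p = 0.000574) for Krt18. Krt23 and Krt4 were lower as well, at -2.27 (SE 0.17) and -1.99 (SE 0.18). Krt14, the keratin of basal cells in stratified epithelia, moved the other way, from 15, 4 and 9 counts in MPC to 690, 641 and 523 in MPC-PTX. Its log2 fold change was 5.95 (SE 0.27, edgeR adjusted p = 2.22e-05), from 0.479 ± 0.298 to 29.8 ± 1.13 CPM (SD, n = 3). Krt15, also known from basal cells of stratified epithelia and named after its values were seen, was lower, from 47, 100 and 108 counts to 10, 4 and 8 (-3.58, SE 0.44, edgeR adjusted p = 0.00115), and Krt13, from the same kind of epithelia, was called lower at -0.47. Krt6a and Krt16 were the other keratins called higher, at 1.67 and 0.91, and the Krt6a value is uncertain because its near-identical neighbour Krt6b may share its reads. Krt5, the usual partner of Krt14, was not tested for lack of reads.

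Genes of the neighbouring adherens junction and the other plakins were called lower or not called. Of 10 tested adherens junction genes, 6 were called lower and 0 higher by edgeR, also 0 higher at an unadjusted p under 0.05 and 0 by DESeq2, with a median of -0.36. Without MPC replicate 3 the calls were 7 lower and 1 higher. Over all genes tested, 15.6% were called lower and 14.1% higher with all libraries. Without MPC replicate 3 these were 3227 and 3020 of 11896 genes. Ctnnd1, which encodes p120-catenin, had 80.6, 106.3 and 107.7 CPM in MPC and 62.3, 61.3 and 58.9 in MPC-PTX, a log2 fold change of -0.69 (SE 0.12, edgeR adjusted p = 0.00481). Ctnnb1, encoding β-catenin, the closest relative of plakoglobin, was at -0.20 (SE 0.06, edgeR adjusted p = 0.036) and was called in 6 of 13 alternatives (range of adjusted p 0.00135 to 0.157), losing its call among others without MPC replicate 2 and without any 1 of the MPC-PTX libraries. Cdh1 was at -0.01 (SE 0.06, adjusted p = 0.864 in edgeR) and Pkp4, a p120-related protein named as a plakophilin, at -0.04 (SE 0.09, adjusted p = 0.796). Among 6 tested plakins, Ppl, Evpl and Eppk1 were called lower at -0.36, -0.42 and -0.52, and 0 were called higher by edgeR, against 1 at an unadjusted p under 0.05 and 1 by DESeq2. Macf1 was at 0.74 (SE 0.27) and Dst at 0.62 (SE 0.31), and edgeR called both higher with the correction for GC content and length and without MPC replicate 3, the MPC library in which both had the most counts. Without MPC-PTX replicate 2 no plakin was called, and without MPC replicate 2 or either of the other MPC-PTX libraries 1 was. Cdsn, the 1 tested gene of the other desmosomal cadherins and their partners, was at -0.14 and not called.

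Hemidesmosomes, which anchor keratins to the basement membrane in place of the next cell, had 3 of 8 tested genes called lower. Over all genes tested, 15.6% were called lower and 14.1% higher. The median log2 fold change was -0.15 over the hemidesmosome list, whose members Dst and Plec are also counted among the plakins above. None of the list was higher by edgeR (0 also at an unadjusted p under 0.05 and 0 by DESeq2). With the replicate number as a block, or with the correction for GC content and length, 1 was called higher. Without MPC replicate 3 the list had 6 lower and 1 higher, against 3227 and 3020 of 11896 over all genes. Of 10 genes for assembly and turnover of desmosomes, Adam9 (0.76) and Adam15 (0.37) were called higher and Prkcd (-0.88), Egfr (-0.35) and Src (-0.39) lower, with a median of 0.01. The 2 higher calls became 4 without MPC replicate 3, 1 without MPC replicate 2 or MPC-PTX replicate 1, and 0 without MPC-PTX replicate 2 or 3. Higher calls over all genes shifted too, from 1668 to 3020 without MPC replicate 3. They were 803 to 934 without MPC replicate 2 or any 1 of the MPC-PTX libraries. Of 6 tested cornified envelope genes, 3 were called lower and 0 higher, 0 also at an unadjusted p under 0.05 and by DESeq2, though 1 was higher without MPC replicate 3. Where every library had to hold 10 counts, 4 were tested and 1 was lower, as Ivl and Sprr3 then dropped out. Ivl fell from 100, 176 and 232 counts to 3, 7 and 4, a log2 fold change of -5.21 (SE 0.43, edgeR adjusted p = 0.0002). Sprr1a was at -3.54 (SE 0.29) and Sprr3, from 35, 15 and 12 counts to 4, 3 and 3, at -2.68 (SE 0.62, edgeR adjusted p = 0.016, range 0.00126 to 0.0667 over 12 alternatives), losing its call when any 1 of the MPC-PTX libraries was left out.

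Transcription factors and splicing regulators of epithelial identity had 5 of 15 tested genes higher and 3 lower. Over all genes tested, 14.1% were called higher and 15.6% lower. All 5 regulators that were higher exceeded a log2 fold change of 1. Grhl3, a Grainyhead factor of surface epithelia, had 20, 19 and 15 counts in MPC and 188, 146 and 129 in MPC-PTX (3.01, SE 0.19, edgeR adjusted p = 7.08e-05). Its relative Grhl1 was lower at -1.0 (SE 0.11) and Grhl2 was not called at -0.16. Zeb2, a repressor of epithelial genes, had 10, 5 and 12 counts against 82, 61 and 56 (2.79, SE 0.29, edgeR adjusted p = 0.000585), and Zeb1 was called at 1.04. Klf4, known from differentiating epithelia, rose from 7.63 ± 0.861 to 24.9 ± 1.61 CPM (SD, n = 3, log2 fold change 1.70). Esrp1 and Elf3 were the other genes called lower, at -0.92 and -0.80. With the correction for GC content and length, or without MPC replicate 3, the genes called lower were 6 in place of 3. Where every library had to hold 10 counts, 13 regulators were tested and 3 were called higher, as Zeb2 and Trp63 then dropped out.

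Trp63, the p53 relative that controls stratified epithelia and is known to act on Perp, had 14, 8 and 15 counts in MPC and 53, 56 and 30 in MPC-PTX (log2 fold change 1.81, SE 0.29, edgeR adjusted p = 0.00358), while Perp itself was at -0.09. Trp53 was at 0.38 (SE 0.21, edgeR adjusted p = 0.228). Of 16 tested p53 target genes, 3 were called higher, Fas, Sesn2 and Zmat3, and 3 lower, Gadd45a, Tnfrsf10b and Cdkn1a, with a median of 0.18. Fas, a death receptor, had 14, 7 and 9 counts in MPC and 69, 70 and 61 in MPC-PTX (log2 fold change 2.65, SE 0.28, edgeR adjusted p = 0.000609). Both counts shifted when libraries were left out. The count of higher genes was 7 without MPC replicate 1, 6 without MPC replicate 3 and 1 without any 1 of the other libraries. The count of lower genes was 1 without MPC replicate 2 or MPC-PTX replicate 1 and 0 without MPC-PTX replicate 2 or 3, and it was 1 with library size alone or with no filter on low counts. Counts over all genes shifted too, from 1668 higher and 1841 lower. They were 803 to 934 and 1077 to 1222 without MPC replicate 2 or any 1 of the MPC-PTX libraries. They were 2201 and 2119 without MPC replicate 1, and 3020 and 3227 without MPC replicate 3.

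**Figure D5:**
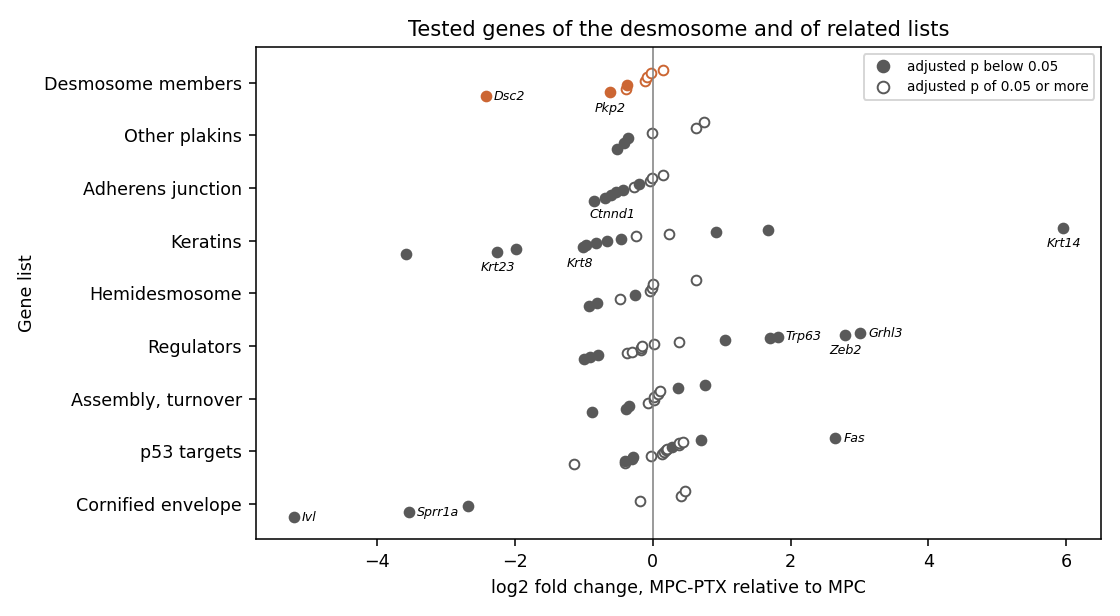
Log2 fold change of MPC-PTX relative to MPC (x) of every tested gene in the desmosome set (orange) and in 8 related lists (grey, y), filled where the edgeR adjusted p is below 0.05. Desmosome genes span -2.42 to 0.15, while keratins span -3.58 to 5.95 and cornified envelope genes reach -5.21.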

How the data were processed

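Poly-A selected RNA was sequenced from 3 MPC and 3 MPC-PTX libraries. Per the labels and the methods, the authors used fastp 0.22.0 for read filtering and HISAT2 for mapping. They deposited raw counts for every gene and library, neither normalized nor pooled. Genome build, annotation, counting tool and use of strand are not given in the sources used here, so reads of overlapping genes cannot be told apart.

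Counts were tested with edgeR 4.0.16 (R 4.3.3; TMM, filterByExpr with a minimum count of 10, glmQLFit with robust estimation, glmQLFTest), with Benjamini-Hochberg adjustment over 11795 genes and a threshold of 0.05. The fit was tested on simulated data. Alternatives were DESeq2 1.42.0, its size factors, library size alone, no filter, 10 counts in every library, the replicate number as a block, a loess correction for GC content and length (span 0.3), glmTreat against a log2 fold change of 1 and each library left out in turn. Shares were compared by exact two-sided permutation tests. Total counts of 16574580 to 23148182 set the counting precision, and 0 counts were taken to allow 3. Positions and lengths came from GENCODE M21 (GRCm38), promoters from RefSeq (GRCm38.p6). The members, lists and tests were chosen with earlier results of these data known. The naming rule took from each of the 9 lists at most 4 genes, those of smallest p among genes called with a log2 change beyond 1 in size. All members and Trp53, Cdh1, Trp63, Krt8, Krt18, Pkp4, Ctnnb1 and Ctnnd1 were named besides. Any other gene named from these lists was chosen after its values were seen. Some results of the hemidesmosome list are not reported here.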

Additional observations from a re-analysis of the deposited data

How the results depend on the processing

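Dsc2 and Pkp2 kept their direction and their call in all 13 alternatives other than glmTreat, which called Dsc2 alone, and Jup kept its direction in all 13. Dsg2, not called with all libraries, passed with DESeq2 (-0.43), DESeq2 size factors (-0.43), no filter (-0.40), at least 10 counts in every library (-0.42), the replicate block (-0.38) and the correction for GC content and length (-0.49). Dsp was 0.01 with library size alone and -0.23 with the GC and length correction. With each library left out in turn, log2 fold changes were -0.53 to -0.30 for Dsg2, -0.16 to 0.11 for Dsp (0.11 without MPC replicate 3), -0.49 to -0.32 for Jup, 0.05 to 0.21 for Pkp1, -0.28 to 0.01 for Pkp3 (0.01 without MPC replicate 1) and -0.14 to -0.08 for Perp. The members called lower were 3 of 8 with all libraries, 5 with no filter (Dsg3 among 10 tested), 5 with the GC and length correction, 1 with glmTreat and 2 to 6 with a library left out, and those called higher were 0 to 1. In the related lists, leaving out a library gave 9 to 22 genes called higher and 21 to 40 called lower. The share of Dsg2 was higher in MPC-PTX by 23.3 percentage points with the longest transcript and by 20.6 with no length scaling, and that of Dsc2 changed by -23.1 and -20.3. The cause of these shifts was not tested.

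Over all genes, 1668 were called higher and 1841 lower. The counts were 1256 and 1737 with at least 10 counts in every library, 1996 and 1620 with library size alone, 138 and 255 with glmTreat, and 2226 and 2655 with the GC and length correction. They were 2201 and 2119 without MPC replicate 1, and 3020 and 3227 without MPC replicate 3. Leaving out MPC replicate 2 or any 1 of the MPC-PTX libraries gave 803 to 934 higher and 1077 to 1222 lower. Deviations of libraries with the same replicate number from their group means correlated at 0.151, -0.0227 and 0.173. Those of libraries with different numbers correlated at -0.228 to 0.153. These ranges overlapped, and the numbers were not taken to pair the libraries. With the number as a block, 1787 genes were called higher and 1717 lower, 4 members were lower and 0 higher, and 15 and 30 genes of the related lists were higher and lower. With the block 2 plakins, Dst and Macf1, were called higher. Among the members the block changed the call of Dsg2 alone. Depth limited Dsg3 and Dsc3, which could not be tested after the filter.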
